A study of Mus musculus with 8 samples.

Results

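The mouse mitochondrial genome carries 37 genes in the GENCODE M21 annotation, all with the prefix mt-, and 13 of them were among the 35275 Ensembl genes of the liver read count table. These were the 13 protein-coding genes. The 2 rRNA genes and the 22 tRNA genes are not analysed here. The libraries came from male mice, 9 weeks old and labelled C57BL/6, whose livers were taken after a 24 h fast. The 4 Pcx L-/- mice carried a floxed exon 10 of Pcx, which encodes pyruvate carboxylase, and Albumin-Cre, which is active in hepatocytes and leaves the gene intact in the other cells of the liver. The floxed allele derives from a C57BL/6NTac-Pcx Tm1a line crossed with Flpe deleter mice. The 4 controls were Pcx f/f littermates, which carry the same floxed allele without Cre and are labelled as wild type. All 8 mice were fasted, so these libraries hold no fed comparison.

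The mitochondrial genome is a circle of double-stranded DNA inside the organelle. Its mRNAs encode membrane subunits of the complexes of oxidative phosphorylation (OXPHOS): NADH dehydrogenase (complex I, the mt-Nd genes), the cytochrome bc1 complex (complex III, mt-Cytb), cytochrome c oxidase (complex IV, the mt-Co genes) and ATP synthase (complex V, the mt-Atp genes). Each strand is transcribed as a long precursor that is cut at the tRNAs between the genes, so the mature levels depend on processing and stability as well as on transcription. The polymerase, the processing enzymes and the other subunits are encoded in the nucleus and imported.

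Between 12016242 and 20023108 reads per library fell on genes, and the livers matched their labels. Pcx was at 845.8 to 1298 normalized CPM in controls and at 32.7 to 44.6 in Pcx L-/- livers (normalized CPM are counts per unit of library size, where the size is scaled by the trimmed mean of M values, TMM, which sets the bulk of genes equal between libraries). Pcx L-/- replicate 1 stood apart from its group. It lay at 3.67 on the first principal component, against 31.7 to 39.9 for the other Pcx L-/- livers and -32.2 to -24.9 for controls. The hepatocyte markers, such as Alb (albumin), summed to 58375 to 88465 normalized CPM in Pcx L-/- livers and to 101475 to 131863 in controls. With edgeR's quasi-likelihood test (adjusted p under 0.05), 3 of 8 were lower, where 13.5% of all genes tested were. Alb was not among the 3 (edgeR adjusted p = 0.0532). Red blood cell markers summed to 4079 normalized CPM in Pcx L-/- replicate 1, to 367.5 to 928.8 in the other Pcx L-/- livers and to 279.4 to 983.8 in controls. Of the markers of Kupffer, endothelial, stellate and bile duct cells, 1 of 23 was higher (Cd68) and 1 lower (Sox9), where 14.1% and 13.5% of all genes were. The muscle gene Acta1 had 0 reads. Histone mRNAs, a class that mostly lacks a poly(A) tail, summed to 181.4 to 271.2 in Pcx L-/- livers and to 103.0 to 118.6 in controls. Of the 4 tested, 3 were higher, where 14.1% of all genes were. Gm42418, a transcript that overlaps rRNA sequence, took 2.14% to 3.66% of the reads in Pcx L-/- livers and 0.397% to 2.57% in controls. The part of these shifts in the results on mitochondrial genes was not tested.

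The sequences of the mitochondrial genes matter for what their read counts hold, because the nuclear genome carries copies of parts of this DNA. A search of the annotated transcripts found 7 pseudogenes with at least 99% identity, side by side on the minus strand of chromosome 1 (chr1:24611535-24616197, GRCm38). In order they are Gm29216 (mt-Co1), Gm28661 (mt-Co2), Gm10925 (mt-Atp6), Gm28437 (mt-Co3), Gm28438 (mt-Nd3), Gm10222 (mt-Nd4l) and Gm28439 (mt-Nd4). For 5 of the 6 neighbouring pairs the bases between the copies were as many as between the same points of the mitochondrial genome. From 95% identity the search also found Gm13341 (mt-Co2, 349 reads in all), Gm13340 (mt-Co1, 1150) and Gm13339 (mt-Nd2, 95) on chromosome 2. On chromosome 13 it found Gm4076 (mt-Nd5, 1 read). Such copies covered 49.1% of mt-Nd2 and 52.3% of mt-Nd5. The first lines below show why reads cannot be placed from sequence: 60 bases of mt-Co2 (chrM:7013-7072, plus strand) and the same bases of its copy (chr1:24615506-24615565, minus strand) are identical.
mt-Co2: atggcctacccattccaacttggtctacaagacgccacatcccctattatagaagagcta
Gm28661: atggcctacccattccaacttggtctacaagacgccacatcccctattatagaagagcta
mt-Nd3: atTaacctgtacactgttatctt
Gm28438: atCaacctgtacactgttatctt
mt-Co1: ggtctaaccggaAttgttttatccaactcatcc
Gm29216: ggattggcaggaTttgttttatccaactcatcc
mt-Cytb: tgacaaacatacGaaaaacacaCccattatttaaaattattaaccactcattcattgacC
Gm11410: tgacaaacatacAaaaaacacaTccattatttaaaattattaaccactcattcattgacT
Capitals mark the bases that differ within the aligned parts. mt-Nd3 (chrM:9459-9481) and its copy (chr1:24613097-24613119) differ at 1 base of 345, T3C, and mt-Co1 (chrM:6381-6413) and its copy (chr1:24616165-24616197) differ at 1 base of 483, A1066T (positions from the first base of the mitochondrial gene, its base first). The first 9 bases of the mt-Co1 and Gm29216 lines lie outside the aligned part. The last pair (chrM:14146-14205 and chr4:80003990-80004049, both plus strand) shows a more distant copy of mt-Cytb for contrast, and Gm11410 had 0 reads in the 8 libraries.

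The near-identical copies covered 98.99% to 99.87% of the length of mt-Co2, mt-Atp6, mt-Co3, mt-Nd3 and mt-Nd4l. They covered 63.6% of mt-Nd4 and 31.3% of mt-Co1. In matches of at least 100 bases they covered none of mt-Nd1, mt-Nd2, mt-Nd5, mt-Nd6, mt-Cytb or mt-Atp8. Apart from mt-Atp8, levels per length followed these classes (FPKM, reads per length of gene and per library size, as the authors deposited them). The 5 genes with no near-identical copy and more than 10 reads had median levels of 3131 to 6793 FPKM over the 8 livers. The 5 genes covered almost whole had 8.50 to 53.3 FPKM. The latter held 0.220% of all reads on the 13 genes. No source used here says how reads that match both genomes were counted, so the levels of these 5 genes cannot be read as amounts of their RNA.

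**Figure D1:**
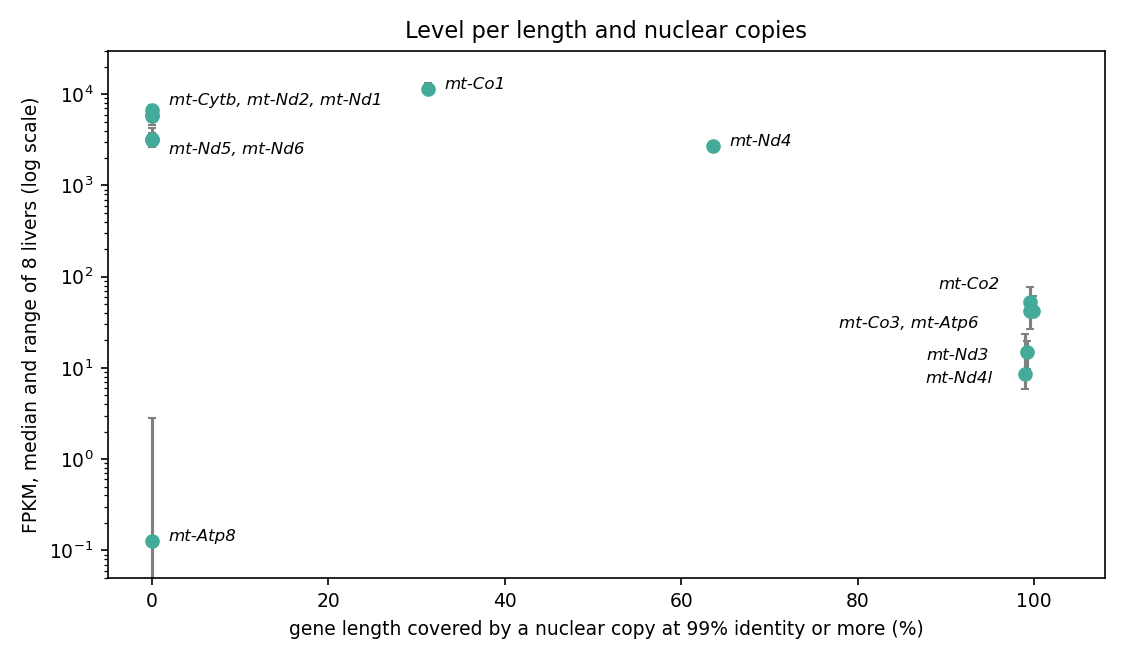
Level per length of each mitochondrial mRNA gene (FPKM, log scale; point, median of 8 livers; line, range) against the share of its length covered by a near-identical nuclear copy. The 5 genes at the right, covered almost whole, sit at 8.50 to 53.3 FPKM, and mt-Atp8 at 0.128, with a line that runs down to 0 in 4 livers.

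The covered genes and their copies shared the reads, nearly evenly for mt-Co2 and mt-Co3. Gm28661 held 51.4% to 55.7% of the reads on itself and mt-Co2, and Gm28437 48.3% to 51.8% of those on itself and mt-Co3. Gm28438, which differs from mt-Nd3 near the first base, held 78.9% to 87.5%. Gm10925 and Gm10222, with 100% identity to the aligned parts of mt-Atp6 and mt-Nd4l, held 64.6% to 68.8% and 46% to 63.0%. In contrast, Gm29216 held 0.156% to 0.247% of the reads on itself and mt-Co1, most of which lies outside the copy. Gm28439 held 0.467% to 0.956% of those on itself and mt-Nd4, although it covers 63.6% of that gene. Together the 7 copies held 30144 reads, 0.0219% of all reads.

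mt-Atp8, a short membrane subunit of ATP synthase, had 10 reads in all, 7 of them in control replicate 4, and was below the filter for testing. It overlaps mt-Atp6 by 43 bases (chrM:7927-7969), and both proteins are read from 1 mRNA. These 43 bases also lie in Gm10925, the copy of mt-Atp6, at 100% identity. On chromosome 1, 233 bases lie between the copies of mt-Co2 and mt-Atp6, as many as on chrM, where they include most of mt-Atp8, but the search found no annotated transcript that holds them. mt-Nd4l and mt-Nd4 also share 1 mRNA and overlap by 7 bases (chrM:10167-10173). Capitals mark both overlaps, each of which starts with the start codon of the downstream gene.
mt-Atp8/mt-Atp6: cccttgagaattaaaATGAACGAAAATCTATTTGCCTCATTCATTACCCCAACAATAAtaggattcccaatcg
mt-Nd4l/mt-Nd4: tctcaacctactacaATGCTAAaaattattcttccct
Although they lie on 1 mRNA, mt-Nd4l was at 8.50 FPKM and mt-Nd4 at 2731 FPKM (medians of 8 livers). With all reads of mt-Nd4 counted over the 502 bases that the copy does not hold, its level was 7497. This takes no counted read to come from the copied part, which is not known.

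On FPKM over the whole gene, mt-Co1, the catalytic subunit of cytochrome c oxidase, had the highest level, 11401 FPKM (range 10256 to 13254), and exceeded mt-Cytb in 8 of 8 livers. mt-Cytb followed at 6793 FPKM, above mt-Nd2 (5999) in 7 of 8. With all reads counted over the bases outside the copies, mt-Nd4 (7497) came between them, above mt-Cytb in 8 of 8 livers. That order holds only if few counted reads came from the copied parts. mt-Nd2 and mt-Nd1 (5820) were not separable, with 4 of 8 livers in this order. mt-Nd1 exceeded mt-Nd5 (3214) in 8 of 8, whereas mt-Nd5 and mt-Nd6 (3131) kept that order in only 5. mt-Nd6, the 1 mRNA transcribed from the other strand (chrM:13552-14070, minus strand), had a level not separable from that of mt-Nd5 beside it. No source used here gives the strand setting of the counting, so reads from the opposite RNA over mt-Nd6 cannot be told apart. Reading frames of 3 genes, mt-Co3, mt-Nd4 and mt-Cytb, end in a lone T that the poly(A) tail turns into a stop codon, shown here in capitals on the last 15 bases of each.
mt-Co3: attgatgaggatctT
mt-Nd4: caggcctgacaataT
mt-Cytb: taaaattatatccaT

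The first comparison asked whether the mitochondrial mRNAs took the same share of the library in livers without pyruvate carboxylase. The share was 5.33%, 5.56%, 4.97% and 5.15% in control replicates 1 to 4, and 5.01%, 4.34%, 4.56% and 4.44% in Pcx L-/- replicates 1 to 4. Pcx L-/- livers were thus lower on average, 4.59% ± 0.294 (SD, n = 4) against 5.25% ± 0.253 (SD, n = 4), but replicate 1 lay above the lowest control. The difference of -0.666 percentage points did not pass an exact two-sided permutation test (p = 0.0571, where 0.0286 is the smallest that 4 mice against 4 allow). In such whole tissue, fewer cells of a type and less RNA per cell cannot be told apart. The mouse numbers fall in 2 ranges that cut across genotype. Pcx L-/- replicate 1 falls in the range of control replicates 1 and 2, and its difference from them was -0.438 points. The other 3 Pcx L-/- mice fall in the range of control replicates 3 and 4, from which they differed by -0.613 points. Without Pcx L-/- replicate 1 the groups did not overlap and the difference was -0.806 points (exact permutation p = 0.0571, the smallest that 3 against 4 allow).

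**Figure D2:**
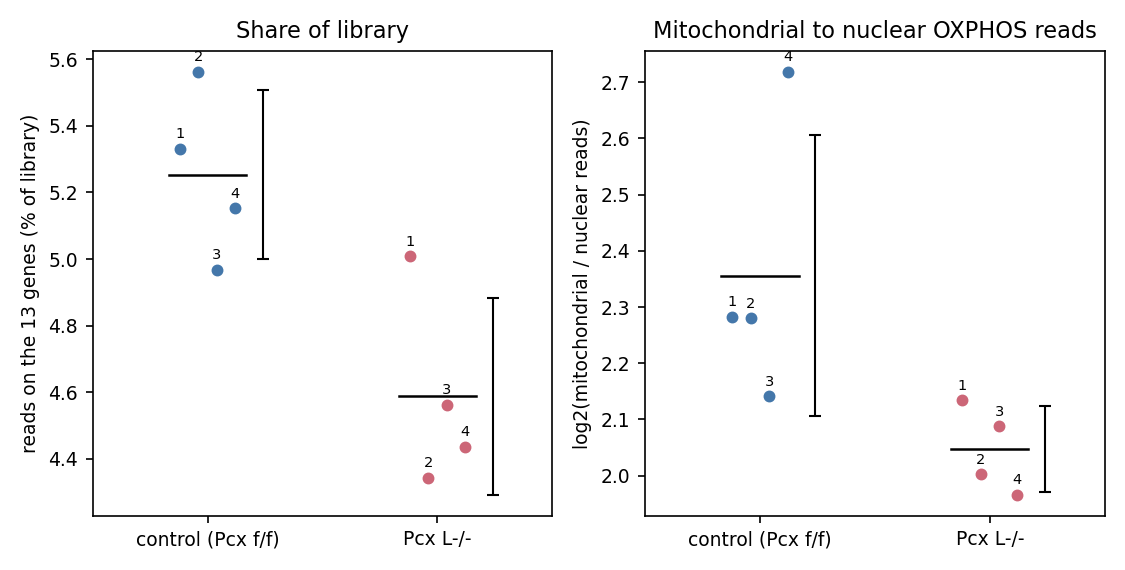
Left, percent of each library's reads on the 13 mitochondrial mRNA genes; right, log2 of their reads over those of the nuclear-coded subunits of complexes I, III, IV and V. Points are livers with their replicate numbers, short lines group means and bars SD (n = 4). The genotypes overlap on the left, where Pcx L-/- replicate 1 (5.01%) is above control replicate 3 (4.97%), and are separate on the right.

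The second comparison took the genes one at a time. Relative to the bulk of genes, 4 of the 12 tested genes were lower in Pcx L-/- livers with edgeR's quasi-likelihood test (adjusted p under 0.05), which is 33.3% of them, where 13.5% of all 13168 genes tested were lower. These 4 were mt-Nd2, mt-Nd5 and mt-Nd4l of complex I and mt-Atp6 of complex V. With the same test 0 were higher, with edgeR at an unadjusted p under 0.05 as well as with DESeq2, and 8 of the 12 were lower at an unadjusted p under 0.05, as were 19.3% of all genes. All 12 log2 fold changes were below 0 (mt-Nd6 was at 0.01 with library size only), as were 50.6% of those of all genes, and their median was -0.46 against -0.01 over all genes. In 6 of the 12, every Pcx L-/- liver was below every control, against 12.5% of all genes tested.

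mt-Nd2, a membrane subunit of the proton-pumping arm of complex I (chrM:3914-4951, plus strand), has no near-identical copy. It was at 7032, 8067, 7889 and 7829 normalized CPM in controls and at 6116, 4442, 4160 and 4465 in Pcx L-/- livers. The groups were separate, with replicate 1 the highest of its genotype. Its mean was 62.2% of that in controls, a log2 fold change of -0.68 ± 0.17 (SE; edgeR adjusted p = 0.0150). The call was lost without Pcx L-/- replicate 3 (adjusted p = 0.0584) or 4 (0.0639), and in both limma fits on log2 FPKM (0.0700 and 0.0779).

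mt-Nd5, a further subunit of the same arm (chrM:11742-13565, plus strand), was at 7384, 6906, 6378 and 9366 normalized CPM in controls. In Pcx L-/- livers it was at 6030, 4678, 4868 and 4501. All of these were below the lowest control, and control replicate 4 was the highest. The log2 fold change was -0.58 ± 0.18 (SE; edgeR adjusted p = 0.0358), and without control replicate 4 it was -0.46 (adjusted p = 0.0651). The call was also lost without control replicates 1 or 3 and without Pcx L-/- replicates 2, 3 or 4, with adjusted p up to 0.126 in edgeR.

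mt-Atp6, the proton channel subunit of ATP synthase (chrM:7927-8607, plus strand), was at 31.4, 38.1, 30.6 and 40.2 normalized CPM in controls and at 28.2, 15.6, 25.8 and 19.6 in Pcx L-/- livers. The groups were again separate, by a small gap. The log2 fold change was -0.65 ± 0.18 (SE; edgeR adjusted p = 0.0206). This call was lost when Pcx L-/- replicate 4 was left out (edgeR adjusted p = 0.0694). Its copy Gm10925 was lower too, and with the copies' reads added to their genes mt-Atp6 was at -0.65 (adjusted p = 0.0192).

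mt-Nd4l, a small subunit of complex I (chrM:9877-10173, plus strand), rested on 27 to 83 reads per library. Its values were 3.11, 3.32, 2.78 and 8.29 normalized CPM in controls and 2.22, 1.48, 2.15 and 1.58 in Pcx L-/- livers. The log2 fold change of -1.19 ± 0.35 (SE; edgeR adjusted p = 0.0283) owed much to control replicate 4, the shallowest library. Without that library it was -0.72 and still past the threshold, whereas without Pcx L-/- replicates 2, 3 or 4 the edgeR adjusted p was 0.0802, 0.0524 and 0.0818.

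**Figure D3:**
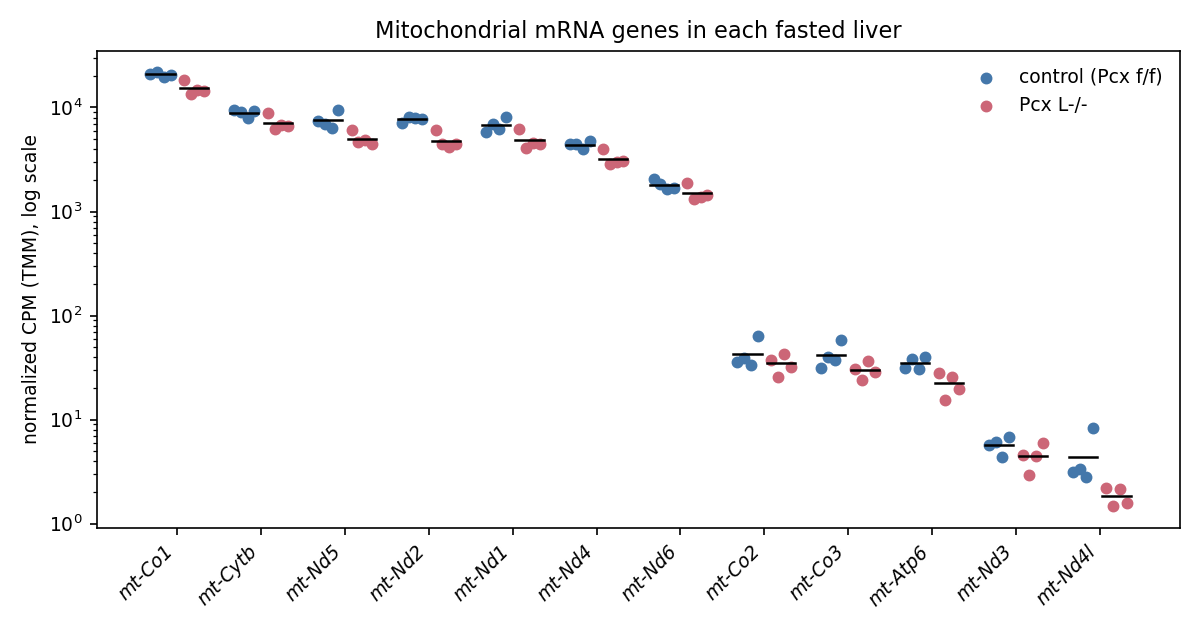
Normalized CPM (TMM, log scale) of the 12 tested mitochondrial mRNA genes in each liver. Points are mice and short lines group means (n = 4). The 7 genes at the left lie between 1314 and 21732, the 5 genes covered almost whole by near-identical nuclear copies between 1.48 and 63.8.

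The other 8 genes did not pass the threshold, although all leaned the same way with this scaling. mt-Co1 was at 19764 to 21732 normalized CPM in controls and at 13607 to 18538 in Pcx L-/- livers, which did not overlap. Its log2 fold change was -0.44 ± 0.18 (SE; edgeR adjusted p = 0.0919). mt-Nd4 was at 3984 to 4729 in controls and at 2841 to 3978 in Pcx L-/- livers, close to touching (log2 fold change -0.45 ± 0.16, SE; edgeR adjusted p = 0.0599). mt-Nd1, a subunit near the quinone site of complex I, overlapped between the groups (log2 fold change -0.49 ± 0.19, SE; edgeR adjusted p = 0.0775). The smallest differences were in mt-Nd6 (-0.26), mt-Co2 (-0.31), mt-Cytb (-0.32) and mt-Nd3 (-0.35), with edgeR adjusted p from 0.201 to 0.317, and mt-Co3 was at -0.47 (adjusted p = 0.0834).

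The number of genes past the threshold turned on single mice and on the scaling. It was 9 without Pcx L-/- replicate 1, where 17.8% of all genes were lower, and 2, 1 and 0 without replicates 2, 3 and 4, where 7.86%, 8.28% and 7.11% were. Without replicate 4, 5 of the 12 were lower at an unadjusted p under 0.05 with edgeR. Scaled by library size alone, 2 of 12 were lower (mt-Nd2 and mt-Nd4l), against 6.61% of all genes, mt-Nd6 was at 0.01, and the median of all genes moved to 0.28. Relative to that of all genes, the median of the 12 was -0.45 with this scaling and -0.56 to -0.36 over the 20 fits made. DESeq2 called 7 of 12 lower, adding mt-Nd1, mt-Co1 and mt-Nd4. It called 9.25% of all its 21737 genes lower, but 6743 of these had no adjusted p and could not be called, which lowers that share. The limma fits, on log2(FPKM + 1) and log2(FPKM + 0.1), called 1 of 12 lower, mt-Nd4l, against 6.25% and 6.24% of all genes.

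**Figure D4:**
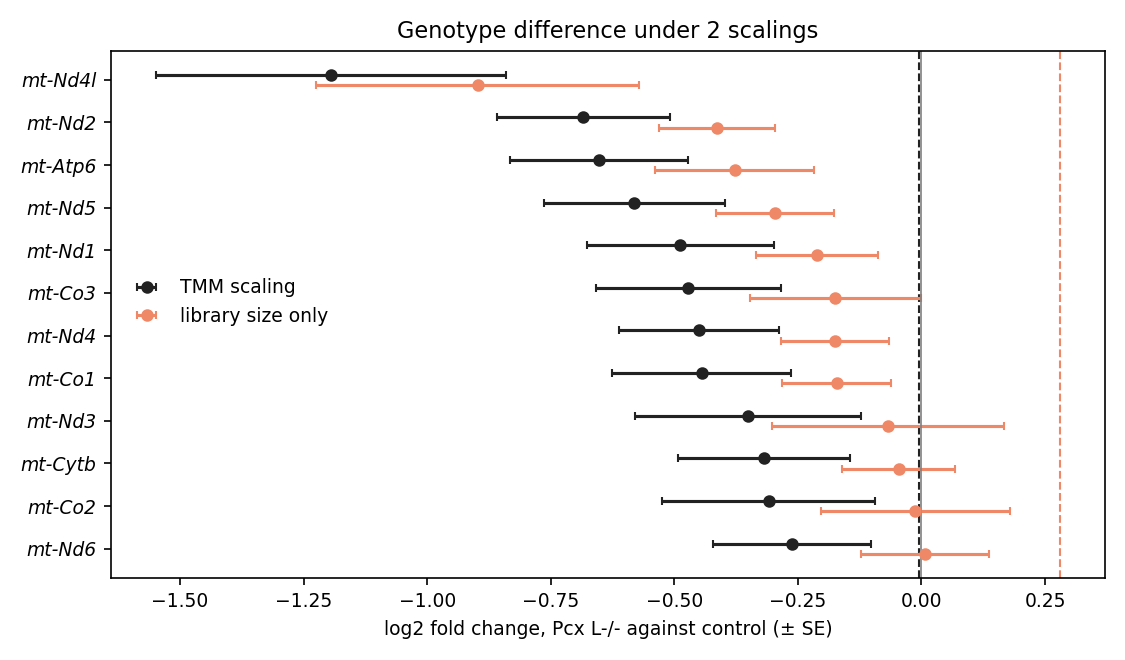
Log2 fold change of each tested mitochondrial mRNA gene (Pcx L-/- against control, ± SE, n = 4 per group) with TMM scaling (black) and with library size only (orange). Dashed lines are the medians of all genes, -0.01 and 0.28; every point lies left of the line of its own colour, and mt-Nd6 reaches 0.01 with library size only.

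The copies on chromosome 1 leaned the same way as the genes they match. All 7 were tested, their log2 fold changes ran from -0.92 to -0.41, and of them only Gm10925 (mt-Atp6) was called, lower (edgeR adjusted p = 0.0193). Of the less similar copies on chromosome 2, Gm13340 (mt-Co1) was at -0.68 and Gm13339 (mt-Nd2) at -1.48, both called lower (edgeR adjusted p = 0.00585 and 0.0151). Gm13341 (mt-Co2) was not called (-0.32, adjusted p = 0.380). Gm13339 rested on 5 to 25 reads per library. Since reads on the copies cannot be assigned from sequence, the 5 tested genes without near-identical copies were also taken by themselves. Of these, mt-Nd2 and mt-Nd5 were called lower, and their median log2 fold change was -0.49, against -0.47 for the 5 covered almost whole.

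The third comparison took each gene as a share of the reads on the 13, which does not depend on library scaling. mt-Nd2 held a smaller share and mt-Cytb a larger one in every Pcx L-/- liver than in every control. mt-Nd2 held 12.3%, 13.7%, 14.6% and 12.7% of these reads in controls and 11.8%, 11.9%, 10.5% and 11.4% in Pcx L-/- livers. mt-Cytb held 16.5%, 15.3%, 14.7% and 14.96% in controls and 17.1%, 16.8%, 17.2% and 17.1% in Pcx L-/- livers. Neither overlapped between genotypes, and both exact two-sided permutation tests gave the smallest p that 4 against 4 allow (p = 0.0286). Over the 13 genes the adjusted p was 0.186 for each, so neither passed the correction. Among the 5 genes without near-identical copies it was 0.0714 for each. The differences were -1.88 percentage points for mt-Nd2 and 1.69 for mt-Cytb. Within the first range of mouse numbers they were -1.14 and 1.21, and within the second -2.35 and 2.21. mt-Co1 held 35.9% ± 1.60 in controls and 36.5% ± 0.490 in Pcx L-/- livers (SD, n = 4), a difference of 0.631 points (exact permutation p = 0.686). The other 10 genes had exact permutation p from 0.0857 to 0.914.

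**Figure D5:**
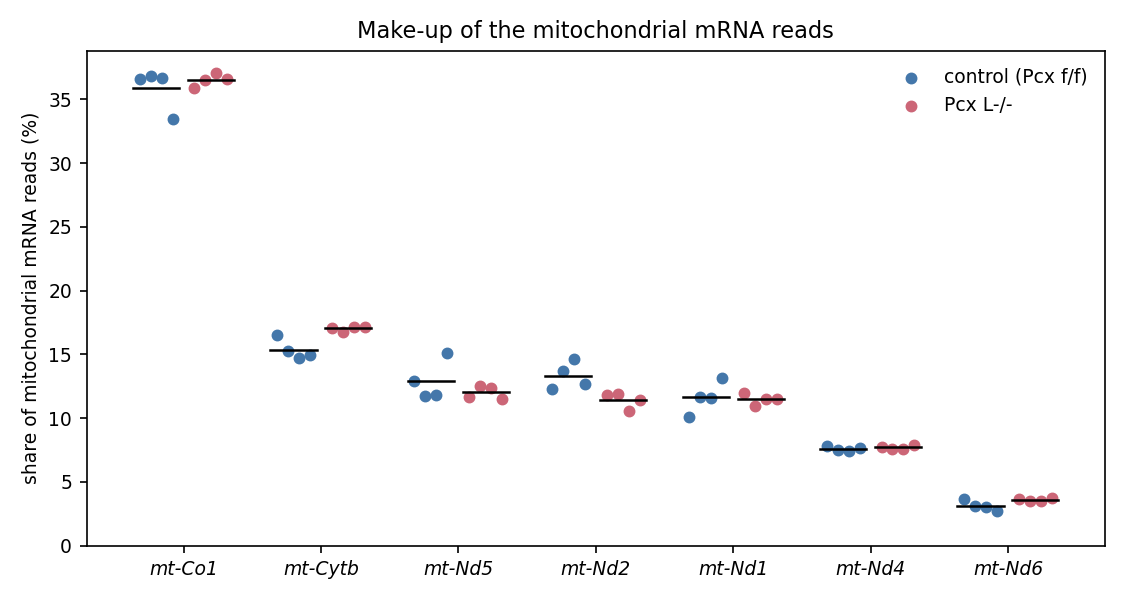
Percent of the reads on the 13 mitochondrial mRNA genes held by each of the 7 most abundant. Points are livers and short lines group means (n = 4). The genotypes are separate in mt-Nd2 (10.5% to 11.9% in Pcx L-/-, 12.3% to 14.6% in controls) and in mt-Cytb (16.8% to 17.2% and 14.7% to 16.5%).

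mt-Nd6 stands for the other strand. The log2 ratio of its reads to those of the other 12 genes was -4.73, -4.95, -4.996 and -5.18 in controls and -4.73, -4.77, -4.78 and -4.70 in Pcx L-/- livers. Pcx L-/- livers lay together at the upper end, with control replicate 1 among them. The difference of 0.22 did not pass the exact two-sided permutation test (p = 0.0857). It was 0.11 within the first range of mouse numbers and 0.34 within the second.

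The fourth comparison set the mitochondrial mRNAs against the nuclear-coded subunits of the complexes they join. The log2 ratio of reads was 2.28, 2.28, 2.14 and 2.72 in controls and 2.13, 2.003, 2.09 and 1.97 in Pcx L-/- livers. The groups did not overlap, by a gap of less than the spread within either, and control replicate 4 was far above the rest. The mean difference was -0.31 (exact two-sided permutation p = 0.0286, the smallest that 4 against 4 allow), and without control replicate 4 it was -0.19. Within the first range of mouse numbers it was -0.15, and within the second -0.41. In control replicate 4 the nuclear-coded subunits of complex IV summed to 1312 normalized CPM, against 1769 to 2301 in the other 7 livers.

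By complex, on FPKM, the log2 ratio differed by -0.40 in complex I and -0.46 in complex IV (exact permutation p = 0.0286 each, 0.0571 adjusted over the 4 complexes). Control replicate 4 had the highest ratio in each complex, and without it these differences were -0.25 and -0.27 (exact permutation p = 0.0571 each, the smallest that 3 against 4 allow). In complex III, where mt-Cytb is the 1 mitochondrial member, it differed by -0.15 (p = 0.486 in the exact permutation test), and by 0.0034 without control replicate 4. In complex V it differed by -0.49 (exact permutation p = 0.114) and by -0.33 without that mouse, and its mitochondrial sum rests on mt-Atp6, almost all of which is copied on chromosome 1, and on the 10 reads of mt-Atp8. The mitochondrial sum of complex IV rests on mt-Co1, with a mean of 12207 of 12312 FPKM in controls. There mt-Co2 and mt-Co3, covered almost whole by near-identical copies, had means of 56.5 and 47.8.

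The nuclear genes that make and handle mitochondrial RNA moved in both directions, more of them up. Of the 69 tested factors for transcription, replication, cleavage, modification and stability, 19 were higher and 4 lower (27.5% and 5.80%), where 14.1% and 13.5% of all genes tested were. Their median log2 fold change was 0.23. With library size only, 36 were higher and 1 lower, where 29.7% and 6.61% of all genes were. With 1 mouse left out, 1 to 7 were lower and 11 to 24 higher. The most, 24, were without Pcx L-/- replicate 1 (16.7% of all genes), and the fewest, 11, without replicates 2 or 4 (9.43% and 8.63%). The modification list held the largest number of these, with 9 of 19 higher and 2 lower.

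Of the transcription machinery, 1 of 10 was higher and 0 lower, where 14.1% and 13.5% of all genes tested were. At an unadjusted p under 0.05 with edgeR 1 was lower, and 0 with DESeq2 after adjustment. Tefm, the elongation factor of the mitochondrial polymerase, rose from 8.91 ± 0.996 to 13.1 ± 1.42 normalized CPM (SD, n = 4 each; log2 fold change 0.56, edgeR adjusted p = 0.0110). The polymerase Polrmt was at 31.8 in controls and 34.5 in Pcx L-/- livers (edgeR adjusted p = 0.481). Tfam, which packages the mitochondrial genome and starts transcription, was at 49.1 and 41.0, with no overlap between groups (log2 fold change -0.26, edgeR adjusted p = 0.0822), and was at 0.02 when scaled by library size. Its partner Tfb2m was at 31.3 and 37.3 (edgeR adjusted p = 0.117).

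Replication factors gave 4 of 15 higher and 0 lower with edgeR, where 14.1% and 13.5% of all genes were. At an unadjusted p under 0.05 in edgeR 1 was lower (19.3% of all genes), and with DESeq2 1 was lower (9.25%). The helicase Twnk rose from 28.5 to 50.2 normalized CPM (log2 fold change 0.82 ± 0.15, SE; edgeR adjusted p = 0.00367), and the nuclease Exog from 1.18 to 2.46 (edgeR adjusted p = 0.0450). The count higher was 1 without control replicate 1 (10.5% of all genes) or Pcx L-/- replicates 2, 3 or 4 (9.43%, 10.4% and 8.63%). It was 2 without control replicates 2, 3 or 4 (12.3%, 10.3% and 14.2%), and 6 without Pcx L-/- replicate 1 (16.7%). Twnk kept its call each time, whereas Exog lost it when any of 6 mice was left out. Polg2, the accessory subunit of the DNA polymerase, was at 12.9 and 9.18 (edgeR adjusted p = 0.0540).

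Cleavage gave 1 of 8 higher and 1 lower, where 14.1% and 13.5% of all genes were. The gene that was higher was Elac2, which cuts the tails of the tRNAs (log2 fold change 0.41, edgeR adjusted p = 0.0256). The count higher was 0 when any of 6 mice was left out, all but control replicate 4 and Pcx L-/- replicate 1. In those fits 8.63% to 12.3% of all genes were higher. The gene that was lower was Hsd17b10, a subunit of the enzyme that cuts before the tRNAs and also a dehydrogenase of isoleucine breakdown. It fell from 366.5 to 184.0 normalized CPM (log2 fold change -0.99 ± 0.17, SE; edgeR adjusted p = 0.00280). The catalytic subunit of that enzyme, 1110008L16Rik (Prorp), was at 12.7 and 17.3 (edgeR adjusted p = 0.0568).

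Among modification enzymes, the rRNA dimethyltransferase Tfb1m rose from 7.36 to 12.7 normalized CPM (log2 fold change 0.78, edgeR adjusted p = 0.00187), and the tRNA methyltransferase Trmt5 from 4.58 to 8.38 (0.85, adjusted p = 0.00761). The rRNA methyltransferase Nsun4 fell from 17.4 to 12.4 (log2 fold change -0.49, edgeR adjusted p = 0.0152), and the tRNA modifier Trit1 from 14.8 to 11.7 (-0.34, adjusted p = 0.0472). Nsun4 lost its call without Pcx L-/- replicates 2 or 3 and with library size only, and Trit1 with library size only and when any mouse but Pcx L-/- replicate 1 was left out.

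Of the stability and decay factors, 4 of 17 were higher and 1 lower, where 14.1% and 13.5% of all genes were. Ddx28, a helicase of mitochondrial ribosome assembly, rose from 12.7 ± 1.59 to 50.3 ± 22.5 normalized CPM (SD, n = 4 each; log2 fold change 1.99, edgeR adjusted p = 0.00132). Rexo2, the nuclease that clears short RNAs from mitochondria, rose from 68.4 ± 4.34 to 135.3 ± 23.5 (0.98, adjusted p = 9.72e-04, edgeR). Lrpprc, which holds mitochondrial mRNAs stable together with Slirp, fell from 162.2 ± 28.7 to 121.9 ± 12.5 (SD, n = 4 each; log2 fold change -0.41, edgeR adjusted p = 0.0480). Slirp was at 4.98 and 6.56 (edgeR adjusted p = 0.480). The call for Lrpprc was lost without control replicate 4 (-0.29, adjusted p = 0.0807) and when any of 5 others was left out in turn, and with library size only it was -0.12.

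The regulators of mitochondrial biogenesis gave 0 of 8 called with edgeR (27.6% of all genes) and 0 with DESeq2 (18.2%). At an unadjusted p under 0.05 in edgeR 1 was lower (19.3% of all genes). Ppargc1a, the coactivator raised by fasting, was at 33.8 ± 15.4 normalized CPM in controls and 23.9 ± 1.95 in Pcx L-/- livers (SD, n = 4 each; edgeR adjusted p = 0.168). Esrra, the nuclear receptor it acts through, was at 67.3 and 49.9 (edgeR adjusted p = 0.0648).

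Of the 75 nuclear-coded subunits of complexes I to V, 4 were lower and 0 higher with edgeR, where 13.5% of all genes were lower. At an unadjusted p under 0.05 in edgeR the counts were 11 and 0, where 19.3% of all genes were lower and 19.7% higher. With DESeq2 they were 8 and 0, where 9.25% and 8.97% of all its genes were, including those without an adjusted p. Their median log2 fold change was -0.14. With library size only, 0 were lower and 1 higher, where 6.61% and 29.7% of all genes were. The median of the 75 was then 0.13, below the 0.28 of all genes. The 4 were Ndufb8 of complex I (log2 fold change -0.52, edgeR adjusted p = 0.0124), Sdhd of complex II (-0.55, 0.0201), Uqcrfs1, the Rieske protein of complex III (-0.50, 0.0295), and Atp5a1, the alpha subunit of ATP synthase (-0.54, 0.0193). In complex IV, 0 of 11 were called with either tool, 1 was lower at an unadjusted p under 0.05 in edgeR, and the median was 0.01. Without Pcx L-/- replicate 1 the count lower was 16 of 75, and without control replicate 4 it was 15, where 17.8% and 13% of all genes were lower. It was 1 without Pcx L-/- replicates 2, 3 or 4 (7.86%, 8.28% and 7.11% of all genes) or control replicate 3 (9.19%), 2 without control replicate 2 (11.7%) and 3 without control replicate 1 (9.91%). Ndufb8 kept its call whichever mouse was left out, and the other 3 did not.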

How the data were processed

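RNA from the livers of 4 Pcx L-/- and 4 control mice was sequenced by a company, and the authors deposited read counts and FPKM values per Ensembl gene. The submitters' processing notes name STAR 2.5, HTSeq 0.6.1, DESeq2 and mm10 (GRCm38). The library kind, the strand setting, the annotation release and the treatment of reads with several matches are stated in none of the sources used here. The deposited FPKM equal the count divided by 1 length per gene and by the library total. No column of another sample is present.

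Symbols and coordinates came from GENCODE M21 and matched 34490 identifiers. Nuclear copies were sought among its transcripts with blastn 2.17.0 (at least 100 bases at 95% identity, and near-identical from 99%). No genome or protein table was used. Counts were tested with edgeR 4.0.16 (R 4.3.3; TMM, quasi-likelihood F test, genotype only, Benjamini-Hochberg over 13168 genes that passed filterByExpr at a count of 10 and a total of 15). Standard errors, approximate, divide the log2 fold change by the root of its F value. Shares and ratios were compared with exact two-sided permutation tests over mice. The steps were tested on simulated data. DESeq2 1.42.0, limma 3.58.1 on log2(FPKM + 1) and log2(FPKM + 0.1), other scalings and filters and the omission of each mouse were alternatives. Depth, 12016242 to 20023108 reads, limits genes with few reads, such as mt-Nd4l.

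Mitochondrial genes and lists were chosen with earlier results of these data known. All 12 tested mitochondrial genes are named, and from each list the 2 highest and 2 lowest by log2 fold change, with Tfam, Polrmt, Tfb2m, Lrpprc, Slirp and Ppargc1a, were eligible to be named. Elac2 was named after its value was seen. The planned rRNA to mRNA ratio was not run, because the 2 rRNA genes are not analysed here.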

Additional observations from a re-analysis of the deposited data

Results flagged for a closer look

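Within groups of 4 mice, 7 of 68 sets of values had a single mouse whose gap to the next, divided by the range, passed Dixon's critical value at 95%. Chance gives about 1 in 20 for independent sets. These sets are not independent, since they hold levels and shares of the same genes and copies that share their reads. In 6 of the 7 it was control replicate 4, the shallowest library. It was the highest control for mt-Nd4l in normalized CPM (8.29; gap over range 0.903) and in share of mitochondrial mRNA reads (0.0134%; 0.945), for mt-Co2 in share (0.103%; 0.875), and for the copies Gm10222 (8.59 normalized CPM; 0.935) and Gm28438 (45.3; 0.908). It was the lowest control for mt-Co1 in share (33.5%; 0.930). The other was Pcx L-/- replicate 1, at 6116 normalized CPM of mt-Nd2 against 4160 to 4465 in the other 3 Pcx L-/- livers (gap over range 0.844).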

How the results depend on the processing

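Of the 228 alternative values for the 12 tested mitochondrial genes, 194 kept the direction and side of the threshold, 22 lost and 9 gained a call, and 3 reversed, all of mt-Nd6 (0.0067 with library size only, 0.0155 and 0.0155 with limma on log2(FPKM + 1) and log2(FPKM + 0.1)). The count of mitochondrial genes lower was 2 with library size only, 7 with DESeq2, and 1 and 1 with the 2 limma fits (6.25% and 6.24% of all genes), and 0 to 9 when 1 mouse was left out. The other 152 genes of the lists gave 8 lower and 19 higher with edgeR and TMM, where 13.5% and 14.1% of all genes were. With library size only they gave 1 and 39 (6.61% and 29.7% of all genes). The limma fits gave 1 and 38 (6.25% and 29%) and 1 and 37 (6.24% and 28.7%). DESeq2 gave 14 lower (9.25%). When 1 mouse was left out the counts were 2 to 24 lower and 11 to 24 higher. Of all genes, 7.11% to 17.8% were then lower and 8.63% to 16.7% higher. Under the block on replicate number 3 mitochondrial genes were lower, without mt-Nd5 (log2 fold change -0.57, edgeR adjusted p = 0.0763). The block gave 6 lower and 13 higher over the lists, where 11.3% and 11.2% of all genes were. Sign-flip tests of the library share, the mt-Nd6 ratio and the ratio to nuclear-coded subunits gave p = 0.125 each (exact). This is the smallest that 4 pairs allow. Mice with the same replicate number had r = 0.129, -0.152, -0.132 and -0.087 between their deviations, where all pairs ran from -0.152 to 0.161. The numbers were treated as names, although 4 such values cannot exclude a shared litter or batch. With library size only and the 2 limma fits, values changed sign for Tfam (0.017, 0.022, 0.025), Mterf1b (0.080, 0.011, 0.045), Tk2 (0.143, 0.138, 0.152), Ptcd1 (0.062, 0.041, 0.048), Sdhc (0.068, 0.087, 0.089) and Cox4i1 (0.050, 0.062, 0.063), where the median of all genes is 0.28, 0.18 and 0.27. With 1 mouse left out, values spanned 0 for Mterf1b (-0.381 to 0.082), Gabpb1 (-0.028 to 0.12), Ndufs4 (-0.024 to 0.137), Uqcr10 (-0.157 to 0.185), Cox5b (-0.014 to 0.180) and Atp5g2 (-0.013 to 0.178). The share of mt-Nd1 in the reads changed sign to 0.0221 points without the genes that have near-identical copies. The causes were not tested. The mitochondrial share of the library kept its direction with every denominator tried (to -0.907 points without the 10 most abundant nuclear genes) and every mouse left out (-0.806 to -0.563 points), as did the ratio to nuclear-coded subunits (-0.38 to -0.19). Adding the copies' reads, leaving out mice in the ratios by complex and leaving out Pcx L-/- replicate 1 for its place on the first component were chosen after seeing the data.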
